A study of Mus musculus with 9 samples.

Results

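Cells make cholesterol from acetyl-CoA through mevalonate, and they make fatty acids from the same precursor. The genes of both routes were followed here in leukemic cells from a mouse model of acute promyelocytic leukemia (APL) treated in vivo with all-trans retinoic acid (ATRA) or arsenic trioxide (ATO). The 32 genes were picked by symbol, and both deposited tables list all 32 among 24364 genes. They comprise 21 synthesis enzymes (7 of the mevalonate arm, 9 of the sterol arm and 5 of the fatty acid arm), 6 genes that control SREBP, and 5 genes of the LXR arm. RNA sequencing had been carried out on 9 libraries of GFP+ APL cells sorted from bone marrow, 3 from each group. The leukemia arose in FVB/NJ mice with a PML/RARα transgene under the human MRP8 promoter, which is active in myeloid cells. It was marked with GFP by retrovirus and grown in recipients of the same strain, which in the transplantations of the study were 6 to 10 weeks old, and all 3 groups share this background. Mice received daily injections into the peritoneum for 6 days, of ATRA at a dose of 10 mg/kg or of ATO at 4 mg/kg, and control mice received neither drug. Whether control mice were injected with solvent and the number of mice behind a library were not given in the sources used here, so that the p-values measure the spread between these libraries only.

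Cholesterol synthesis is governed by the transcription factor SREBP2, encoded by Srebf2, and fatty acid synthesis mostly by SREBP1, encoded by Srebf1. Both are held in the endoplasmic reticulum by SCAP and the INSIG proteins while sterols are plentiful, and travel to the Golgi for cleavage when sterols run low. For cholesterol, though not for fatty acids, the nuclear receptors LXRα and LXRβ (Nr1h3 and Nr1h2) work in the other direction. Oxysterols activate them, and they induce the efflux transporters ABCA1 and ABCG1 and MYLIP, a ubiquitin ligase that acts on lipoprotein receptors. Retinoid X receptors are the partners of LXR as well as of the retinoic acid receptor.

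The libraries held between 12192491 and 25511738 reads on genes, and all values below are scaled reads, that is, reads divided by the size factor of each library, computed over the 9 libraries together. Of 10 promyelocyte markers, Mpo lay between 49869 and 288247 in all libraries and Elane between 54867 and 227965, whereas Cd34 was low, at 20.7 to 29.5 in the controls and 0.946 to 8.21 in the drug libraries. Elane and Gfi1 were called higher with ATO. Cd34 was called lower with ATRA, but it passed the filter on low values given below only through the controls. Its call is therefore a description. Control 2 and ATO 3 stood apart: control 2 had the highest value of all libraries for 24.5% of the 12101 genes tested and ATO 3 for 22.8%. Among the 31 members with reads, control 2 was highest for 11 and ATO 3 for 7. Hmgcs1, the gene of cytosolic HMG-CoA synthase, was listed at 0 in all 9 libraries, although Mvk, Mvd and Fdps downstream of it had many reads. Hmgcs1 was not found by symbol in the GENCODE vM1 annotation, and whether its zeros come from the annotation used for counting was not tested. The other 31 members all passed the filter on low values (10 scaled reads in at least 3 libraries). Scd1 passed it only through the 3 controls.

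Levels per kilobase of transcript were highest for Fdps and Acly. In control libraries Fdps, which makes farnesyl diphosphate, had 2470 ± 679 scaled reads per kb (SD, n = 3), and Acly, which makes cytosolic acetyl-CoA from citrate, had 2060 ± 231. Srebf2 followed with 1200 ± 180, Nr1h2 with 1190 ± 263 and Fasn, the fatty acid synthase gene, with 958 ± 256. Levels ran from 803 ± 186 for Scap down to 98.6 ± 20.5 for Tm7sf2 in the next 22 genes. Idi1 (58.5 ± 30.5), Lss (49.2 ± 9.75), Abca1 (29 ± 15) and Scd1 (4.08 ± 1.98) were lowest. Of the 30 neighboring pairs in this order, 28 overlapped in their control libraries, and Acly above Srebf2 and Abca1 above Scd1 were the 2 that did not. Srebf2 exceeded Srebf1 (568 ± 85.4), Nr1h2 exceeded Nr1h3 (121 ± 39.4), and Scd2 (543 ± 76.4) exceeded Scd1, the liver and fat isoform of stearoyl-CoA desaturase, without overlap of the control libraries.

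**Figure D1:**
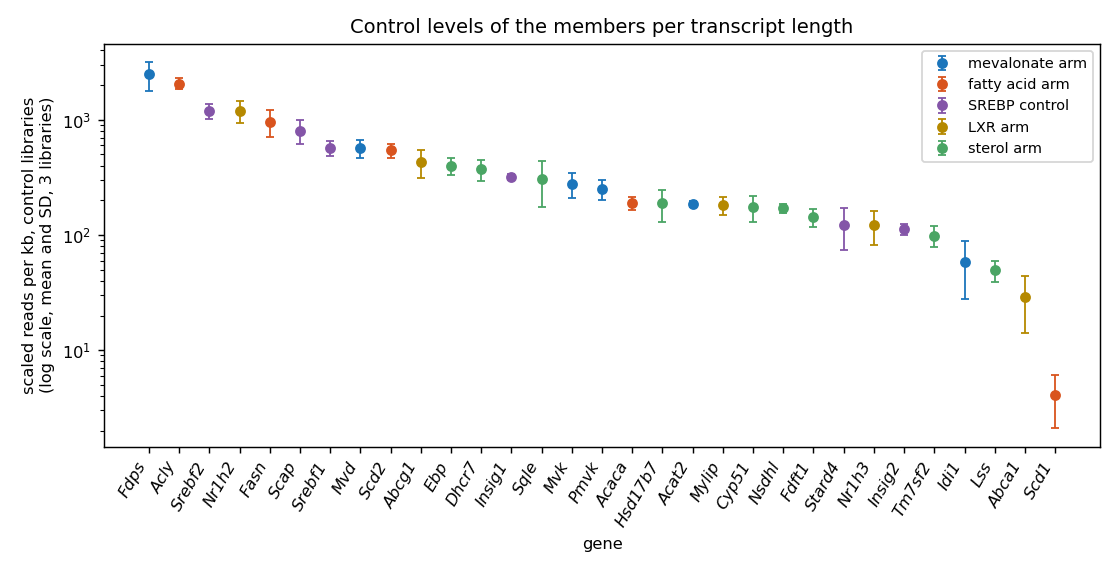
Control levels of the 31 members with reads, in scaled reads per kb of the longest coding transcript on a log scale, ordered from high to low. Points are means of 3 control libraries and bars their SD, colored by arm. Fdps stands highest at 2470 and Scd1 lowest at 4.08.

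The comparison of ATRA with control asked which of these genes respond to the ligand of the retinoic acid receptor. Insig1 and Scd1 were lower with ATRA, and no member was called higher. A gene was called at an adjusted p of less than 0.05 and more than a 1.5-fold change in limma. Over all tested genes 1.34% were called higher and 4.26% lower with ATRA, beside 0 and 2 of the 31 members. The comparison of ATO with control called 8 members. Mvd, Tm7sf2, Nr1h3 and Abcg1 were higher, and Insig1, Sqle, Abca1 and Scd1 were lower, that is 4 members in each direction beside 6.13% higher and 8.55% lower over all genes. Without Scd1 the members called lower were 1 with ATRA and 3 with ATO, of 30. Without control 3 no member was called in either comparison, and 23 genes were then called higher and 141 lower with ATRA, and 88 higher and 163 lower with ATO, over all genes. The same 3 control libraries serve both comparisons. All 3 drug libraries lay above all 3 controls for 4 members with ATRA and 6 with ATO (11.5% and 15.9% of all genes), and below them for 4 members with each drug (12.5% and 16.4%). The median log2 fold change of the 31 members was -0.03 with ATRA and 0.07 with ATO, beside -0.01 over all genes in both comparisons.

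**Figure D2:**
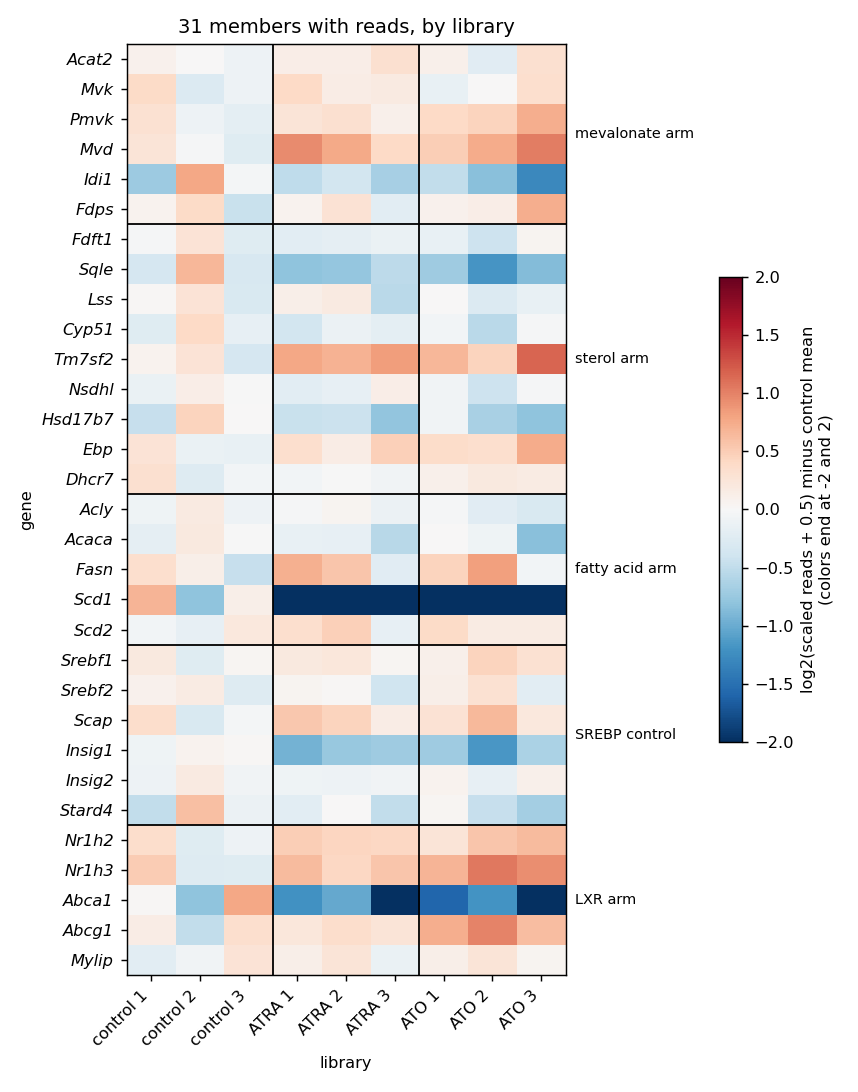
Each row is a member with reads and each column a library, and color gives log2(scaled reads + 0.5) minus the mean of the 3 controls, from -2 (blue) to 2 (red). Insig1, Sqle, Abca1 and Scd1 are blue in all 6 drug libraries, Mvd and Tm7sf2 are red in them, and control 2 is the reddest library in the sterol arm.

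Insig1 was the SREBP control gene that changed. It encodes a protein that retains the SCAP and SREBP complex in the endoplasmic reticulum, and it is itself an SREBP target in liver and cultured cells. Insig1 (mm9, chr5:28397952-28405201, plus strand, protein coding) had 795, 888 and 859 scaled reads in control libraries, 439, 503 and 519 under ATRA and 517, 377 and 548 under ATO. The 6 drug libraries lay below the 3 controls and the 2 drugs overlapped. Insig1 fell by 0.80 on the log2 scale with ATRA (SE 0.18, adjusted p = 0.0222 in limma) and by 0.83 with ATO (SE 0.18, adjusted p = 0.0142). Its value kept to between -0.85 and -0.73 with ATRA and between -0.93 and -0.67 with ATO over 26 other settings, and edgeR and DESeq2 called it in both comparisons. The call was lost with ATRA without control 2, control 3, ATRA 1 or ATRA 2 (adjusted p up to 0.142) and with ATO without control 3 or ATO 2 (up to 0.085).

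The other 5 SREBP control genes were not called with either drug. Srebf1 had 2781, 2052 and 2497 scaled reads in control libraries, 2789, 2826 and 2492 under ATRA and 2609, 3312 and 3006 under ATO. Its log2 fold change was 0.15 with ATRA and 0.29 with ATO (95% confidence interval -0.07 to 0.65). Srebf2 had 6309, 6697 and 4982 in control libraries, 6181, 6041 and 4496 under ATRA and 6421, 7382 and 5144 under ATO. The 3 groups overlapped for both factors, and the interval for Srebf2 ran from -0.53 to 0.32 with ATRA and from -0.36 to 0.50 with ATO. Scap, the escort of SREBP, had log2 fold changes of 0.38 with both drugs (adjusted p = 0.328 and 0.187). Insig2, the second INSIG gene, had values between 269 and 340 in all 9 libraries and a log2 fold change of -0.08 with ATRA and 0.00 with ATO. Stard4, a cytosolic sterol carrier and SREBP2 target, had 898 in control 2 and 369 to 605 in the other 8 libraries.

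Most of the member promoters that could be searched held a motif that the choice of genes did not use. Of the 32 members 25 had a RefSeq window (GRCm38.p6, 250 bases before to 50 after the start site). The called members Sqle, Scd1 and Abcg1 had none. The NF-Y box CCAAT was on either strand in 19 of the 25, beside 41.1% of all genes with a window. All 7 sterol arm windows and 5 of 6 in the mevalonate arm held it, and 1 of 4 in the LXR arm did. The GC box GGGCGG was in 20 of 25 (38.2% of all genes) and the E-box CACGTG in 5 of 25 (8.09%). The sterol regulatory element TCACNCCAC was found exactly in 1 member (1.44% of all genes), and in 12 of 25 with 1 mismatch allowed (26.7%). The LXR site DR4, a direct repeat of a nuclear receptor half-site, was in 0 of 25 windows (0.278% of all genes) with at most 1 mismatch in all. Sites that differ from the repeat in more letters were not searched, so this count cannot show that the windows lack LXR sites. These matches describe letters in a short window only. Motifs were searched on both strands, and CACGTG reads the same on both. The stretch of Hmgcs1 with the only exact sterol regulatory element is shown for its letters (chr13:119690189-119690248, plus strand, element in capitals):
Hmgcs1: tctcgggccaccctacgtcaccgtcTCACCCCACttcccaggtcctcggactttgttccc
The windows of Insig1 (chr5:28071162-28071461, plus strand), Mvd (chr8:122443373-122443672, minus strand), Tm7sf2 (chr19:6067801-6068100, minus strand) and Abca1 (chr4:53159846-53160145, minus strand) are shown because these genes were called and their windows hold one of the boxes. Nr1h3, also called, has 2 overlapping windows with neither CCAAT nor CACGTG, which are not printed. Capitals mark CCAAT or its complement ATTGG, and CACGTG:
Insig1: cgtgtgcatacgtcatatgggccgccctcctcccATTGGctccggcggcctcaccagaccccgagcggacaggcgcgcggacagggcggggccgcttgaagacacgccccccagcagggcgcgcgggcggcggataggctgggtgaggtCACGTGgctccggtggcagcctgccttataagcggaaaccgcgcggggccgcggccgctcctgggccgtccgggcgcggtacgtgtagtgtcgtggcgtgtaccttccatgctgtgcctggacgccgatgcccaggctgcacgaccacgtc
Mvd: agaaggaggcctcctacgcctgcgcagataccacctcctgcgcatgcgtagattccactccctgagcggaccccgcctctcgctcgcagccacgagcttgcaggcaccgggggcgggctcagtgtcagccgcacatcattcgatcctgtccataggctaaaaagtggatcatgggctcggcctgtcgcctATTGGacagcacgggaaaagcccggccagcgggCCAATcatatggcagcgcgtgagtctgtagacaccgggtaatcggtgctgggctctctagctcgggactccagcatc
Tm7sf2: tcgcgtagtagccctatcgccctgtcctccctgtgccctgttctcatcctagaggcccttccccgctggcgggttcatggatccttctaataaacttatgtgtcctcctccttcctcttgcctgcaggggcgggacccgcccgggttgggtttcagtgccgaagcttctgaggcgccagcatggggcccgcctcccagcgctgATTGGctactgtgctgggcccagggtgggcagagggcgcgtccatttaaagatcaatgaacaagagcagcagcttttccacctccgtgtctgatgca
Abca1: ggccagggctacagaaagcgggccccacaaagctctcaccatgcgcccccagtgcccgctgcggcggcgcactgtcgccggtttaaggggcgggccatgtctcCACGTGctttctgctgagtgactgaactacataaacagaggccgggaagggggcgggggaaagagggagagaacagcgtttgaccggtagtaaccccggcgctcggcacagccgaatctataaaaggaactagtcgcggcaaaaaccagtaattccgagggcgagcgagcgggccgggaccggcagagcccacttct

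Within the mevalonate arm, limma called Mvd higher with ATO and no enzyme lower. Mvd encodes the decarboxylase that forms isopentenyl diphosphate (mm9, chr8:124957496-124967322, minus strand). It had 1188, 970 and 839 scaled reads in control libraries, 1907, 1672 and 1300 under ATRA and 1390, 1654 and 2012 under ATO. All 6 drug libraries lay above the controls. The log2 fold change was 0.75 with ATO (SE 0.20, adjusted p = 0.0314 in limma) and 0.70 with ATRA (SE 0.20, adjusted p = 0.0699), and DESeq2 called Mvd with both drugs. The ATO call was lost without control 2, control 3, ATO 2 or ATO 3 (adjusted p up to 0.164). Pmvk, the kinase of the step before, had 366, 274 and 258 scaled reads in the controls and 389, 403 and 487 with ATO, a log2 difference of 0.52 that did not pass (adjusted p = 0.0847). Idi1, the isomerase of the step after, had 91.8, 263 and 148 in the controls and 108, 85.6 and 62.4 with ATO, with a log2 fold change of -0.87 (adjusted p = 0.0969 in limma), while DESeq2 called Idi1 lower with ATO (log2 -0.96, adjusted p = 0.0412). Control 2 was far above the other controls for Idi1, and control 1 lay among the drug libraries. Acat2, Mvk and Fdps had log2 fold changes between 0.04 and 0.31 with the drugs, and none passed. The arm's median over 6 tested genes was 0.21 with ATRA and 0.19 with ATO.

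Sqle and Tm7sf2 of the sterol arm were called with ATO, in opposite directions. Sqle encodes squalene epoxidase, a rate-limiting enzyme of the late pathway (mm9, chr15:59146632-59162747, plus strand). It had 631, 1250 and 632 scaled reads in control libraries, 455, 465 and 549 under ATRA and 485, 349 and 436 under ATO. The 6 drug libraries lay below the controls, but control 2 stood far above the other controls. Sqle fell by 0.92 on the log2 scale with ATO (SE 0.26, adjusted p = 0.0341 in limma), and its log2 difference with ATRA was -0.70 (SE 0.26, adjusted p = 0.154). Without control 2 the ATO value was -0.59 and not called (adjusted p = 0.0761). The call was also lost without control 3, ATRA 2, ATO 2 or ATO 3 (adjusted p up to 0.117). Tm7sf2, one of the sterol C14-reductases (mm9, chr19:6062821-6068373, minus strand), had 152, 176 and 115 in control libraries, 249, 236 and 261 under ATRA and 230, 198 and 325 under ATO. All drug libraries were above all controls. Tm7sf2 rose by a log2 fold change of 0.75 with ATO (SE 0.24, adjusted p = 0.0491), while 0.77 with ATRA did not pass in limma (adjusted p = 0.0854) but did in DESeq2 (adjusted p = 0.0449). The ATO call sits at the threshold and was lost in 18 of 26 other settings, edgeR among them (adjusted p = 0.0577).

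The remaining 7 sterol arm genes were not called with either drug. They act between squalene formation and the last double bond changes of cholesterol. Cyp51, the lanosterol demethylase gene, had 573, 890 and 602 scaled reads in control libraries, 521, 619 and 592 under ATRA and 648, 463 and 665 under ATO. Hsd17b7, a sterol ketoreductase, had its highest value in control 2 too (1141, beside 614 and 850), and log2 fold changes of -0.56 and -0.51 (adjusted p = 0.248 and 0.167). Ebp, the sterol isomerase, was above the controls in all ATO libraries (884, 861 and 1145 against 618 to 830), with a log2 difference of 0.48 (adjusted p = 0.095). Fdft1, Lss, Nsdhl and Dhcr7 had log2 fold changes between -0.18 and 0.15 with either drug. Control 2 was highest for 5 of the 9 sterol arm genes. The arm's median log2 fold change over 9 genes was -0.08 with ATRA and -0.17 with ATO.

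**Figure D3:**
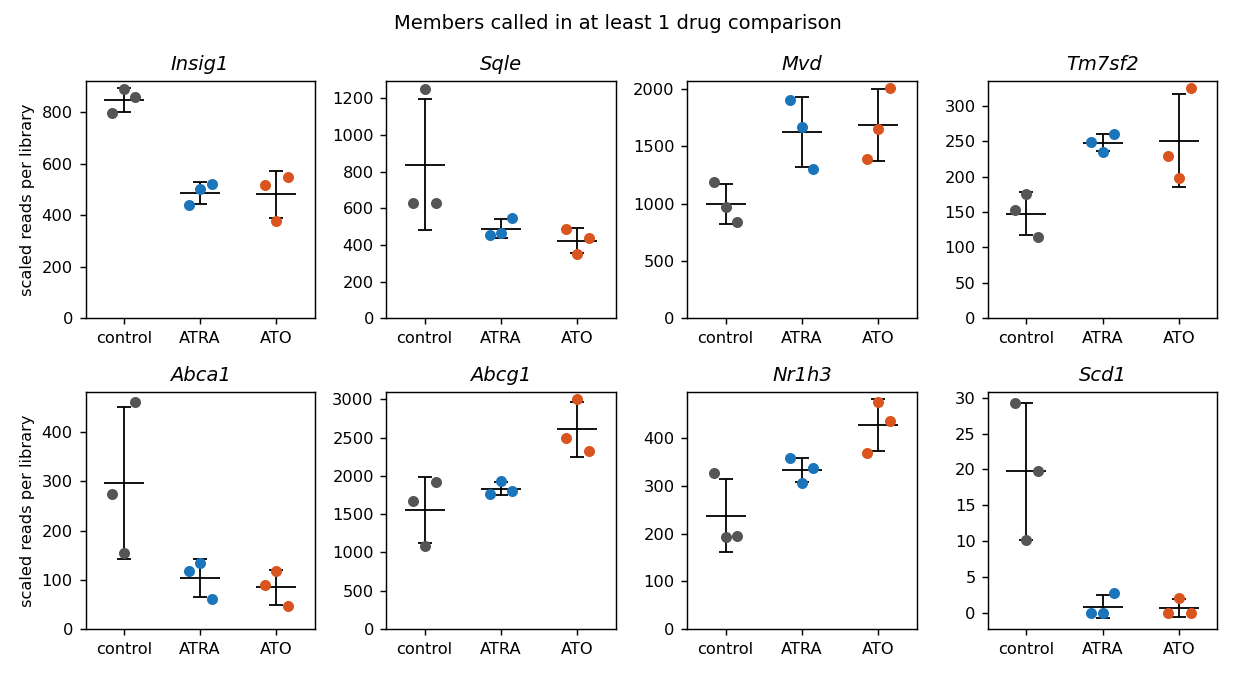
Scaled reads in each library of the 8 members called with ATRA or ATO, with points for libraries and bars for the mean and SD of 3. Insig1 lies between 795 and 888 in the controls and at most at 548 with the drugs, and control 2 alone lifts the control mean of Sqle.

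The main enzymes of fatty acid synthesis were not called. Fasn had 11303, 9745 and 6496 scaled reads in control libraries, 14605, 13174 and 7675 under ATRA and 12206, 15877 and 8605 under ATO. The controls and the drug libraries of Fasn overlapped, with log2 fold changes of 0.35 and 0.41 (adjusted p = 0.545 and 0.329). Acly ran from 7374 to 10291 over all libraries, Acaca, the acetyl-CoA carboxylase gene, from 1004 to 2061, and Scd2 from 2614 to 4083. Their log2 fold changes lay between -0.30 and 0.24 in both comparisons. Scd1 (mm9, chr19:44468941-44482199, minus strand) had 29.3, 10.2 and 19.8 scaled reads in control libraries, 0, 0 and 2.79 under ATRA and 0, 2.18 and 0 under ATO. That is 62 reads in the controls and 3 with each drug, a ratio of 0.0476 with ATRA (exact 95% interval 0.00955 to 0.146) and 0.0512 with ATO (0.0103 to 0.157), where the intervals cover counting error only. Scd1 entered the test through its controls alone, so its called difference is given as a description (log2 -4.31, adjusted p = 0.0184 with ATRA, and log2 -4.41, adjusted p = 0.0131 with ATO). Scd1 is abundant in fat tissue, and some markers of stromal cells were low in the same libraries. Of 9 tested stroma markers 6 were called lower with ATRA and 7 with ATO (4.26% and 8.55% over all genes), but 6 of the 9, Cxcl12 and Sparc among them, passed the filter on low values only through the controls, as Scd1 did, and of the other 3 only 1 and 2 were called. The counts are therefore a description. Cxcl12 had 123 to 169 scaled reads in the controls and at most 2.08 in a drug library, Sparc 151 to 232 and at most 6.56. The part of such cells in the Scd1 reads was not tested, and in bulk RNA fewer cells of a type and less RNA per cell cannot be told apart.

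With ATO the LXR arm moved in both directions, and the efflux transporters Abca1 and Abcg1 parted. Abca1 passes cholesterol to lipid-poor apolipoproteins (mm9, chr4:53043659-53172767, minus strand). It had 276, 155 and 462 scaled reads in control libraries, 117, 133 and 60.5 under ATRA and 89.5, 118 and 46.0 under ATO. All 6 drug libraries lay below the lowest control. Abca1 fell by 1.78 on the log2 scale with ATO (SE 0.44, adjusted p = 0.022 in limma), and the difference of -1.46 with ATRA did not pass (adjusted p = 0.0786), while edgeR (adjusted p = 0.0456) and DESeq2 (adjusted p = 0.0041) called it. The ATO call was lost without control 3 or ATO 3 (adjusted p up to 0.139). Abcg1, which passes cholesterol to high-density lipoprotein (mm9, chr17:31194643-31252722, plus strand), had 1673, 1081 and 1916 in control libraries, 1762, 1932 and 1804 under ATRA and 2497, 3003 and 2320 under ATO. The 3 ATO libraries lay above the other 6, and the ATRA libraries lay within the range of the controls or just above it. Abcg1 rose with ATO by 0.78 on the log2 scale (SE 0.21, adjusted p = 0.0293) and had 0.28 with ATRA (adjusted p = 0.495). Its ATO value was 0.53 and not called without control 2 (adjusted p = 0.0709), and the call was also lost without control 3, ATO 2 or ATO 3 (up to 0.104).

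Of the LXR genes themselves, Nr1h3 rose with ATO. Nr1h3 encodes LXRα, the form of macrophages and liver (mm9, chr2:91024218-91042991, minus strand), and had 326, 192 and 194 scaled reads in control libraries, 358, 307 and 337 under ATRA and 369, 476 and 437 under ATO. The ATO libraries lay above all others, and control 1 lay within the ATRA range. The log2 fold change was 0.88 with ATO (SE 0.23, adjusted p = 0.0257 in limma) and 0.53 with ATRA (adjusted p = 0.225). The ATO call was lost without control 2, control 3, ATO 2 or ATO 3 (adjusted p up to 0.147). Nr1h2, the ubiquitous LXRβ gene, had 2969, 1979 and 2166 in control libraries, 3285, 3161 and 3106 under ATRA and 2781, 3446 and 3622 under ATO. Its log2 fold changes of 0.45 and 0.48 did not pass (adjusted p = 0.203 and 0.0858), and control 1 was the high control here too. Mylip had 477, 525 and 667 in control libraries, 597, 655 and 500 under ATRA and 595, 655 and 574 under ATO, and the groups overlapped.

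Markers of macrophages moved beside the LXR arm. Of 26 tested genes of the monocyte and macrophage list 12 fell with ATRA and 18 with ATO, and 2 rose with ATO. Over all genes 4.26% were called lower with ATRA, and 8.55% lower and 6.13% higher with ATO. Adgre1 was among those that rose, with 668 to 749 scaled reads in control libraries and 1124 to 1202 under ATO (log2 0.71, adjusted p = 0.0299). Mertk, an efferocytosis receptor, had 78.2 to 386 scaled reads in the controls and 1.86 to 19.8 in the drug libraries, and C1qa 172 to 452 and 21.8 to 54.4. Csf1r had 1504 to 2693 in control libraries, 1065 to 1686 under ATRA and 622 to 952 under ATO, and fell with ATO by 1.37 on the log2 scale (adjusted p = 0.00534). Cd68 had 1736 to 4103 in the controls and 2366 to 4867 in the drug libraries, while Marco, at 0 in the controls, and Timd4 had at most 3.05 anywhere. The summed scaled reads of the list, most of them from Ly6c2 and the cathepsin genes, were 122428 to 226931 in control libraries, 122537 to 193662 under ATRA and 132274 to 198201 under ATO and overlapped. Basophil, eosinophil and mast cell markers fell too (7 of 8 with each drug, 2 of which passed the filter only through the controls), with sums of 2528 to 5187 in the controls and 486 to 781 in the drug libraries. The part of these cells in the values of Abca1, Abcg1 and Nr1h3 was not tested.

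The synthesis enzymes were set against the LXR arm by their medians. Over the 20 tested enzymes the median log2 fold change was -0.04 with ATRA and -0.04 with ATO, beside -0.01 over all genes, with 9 and 10 of 20 above zero. Without Scd1 it was -0.03 and 0.06. Over the 5 LXR arm genes it was 0.28 with ATRA and 0.48 with ATO, with Abca1 the only gene below zero in each case. The ATO median is the value of Nr1h2, a receptor gene that was not called. The targets Abca1, Mylip and Abcg1 had -1.46, 0.08 and 0.28 with ATRA, and -1.78, 0.14 and 0.78 with ATO. Of 13 other tested LXR targets and partners 5 were called lower with each drug and none higher (4.26% and 8.55% lower over all genes). The LXR arm median therefore does not describe the LXR targets as a group. By library, the median of the LXR arm against the control mean was 0.14, -0.26 and 0.28 in control libraries, 0.22, 0.35 and 0.25 under ATRA and 0.25, 0.56 and 0.62 under ATO. The lowest ATO library thus lay below control 3. The same median over the synthesis enzymes was 0.05, 0.16 and -0.13 in control libraries, 0.02, 0.09 and -0.15 under ATRA and 0.01, -0.15 and 0.02 under ATO, and the groups overlapped.

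**Figure D4:**
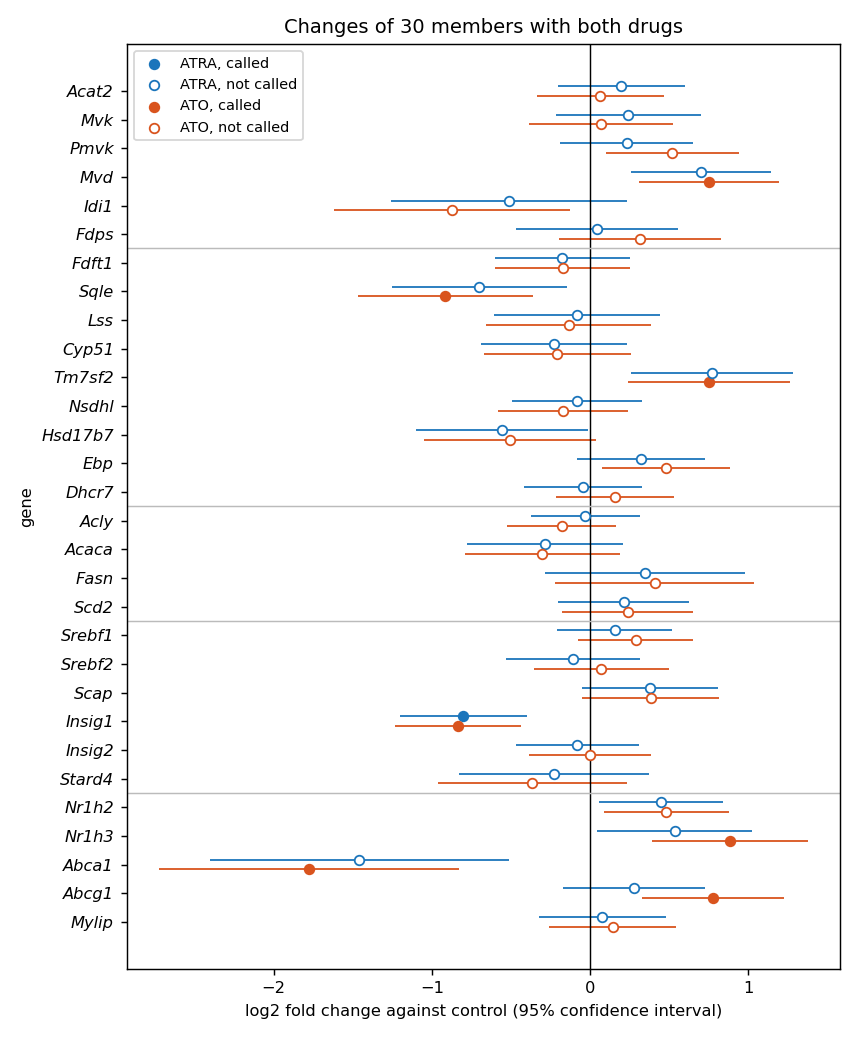
Log2 fold change against control of the 30 members other than Scd1 and Hmgcs1, for ATRA (blue) and ATO (orange), with 95% confidence intervals. Filled points passed an adjusted p of 0.05 and a fold change of 1.5, and lines part the arms. Insig1 is filled for both drugs, at -0.80 and -0.83.

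Transcript length and GC content moved with the fold changes of the members. The 4 members called higher with ATO had transcripts with 53.6 to 59.3% GC, and the 4 called lower had 47.2 to 49.3%. Across all tested genes with a transcript, the log2 fold change with ATO fell by 0.21 for each doubling of transcript length and rose by 0.35 for each 10 percentage points of GC, and with ATRA these slopes were -0.13 and 0.20. Genes called higher with ATO had a median transcript of 2108 bases and 55.7% GC, and those called lower 4100 bases and 47% GC. After both trends were removed from each library, Insig1 (log2 -0.76, adjusted p = 0.00676 with ATRA, and log2 -0.76, adjusted p = 0.00599 with ATO), Sqle (log2 -0.88, adjusted p = 0.0294 with ATO) and Abcg1 (log2 0.74, adjusted p = 0.0199 with ATO) were still called. Scd1, which entered the test through its controls alone, also stayed called (adjusted p = 0.0312 with ATRA and 0.0221 with ATO). Mvd (0.29, adjusted p = 0.196), Tm7sf2 (0.34, adjusted p = 0.28), Nr1h3 (0.52) and Abca1 (-1.28, adjusted p = 0.0528) were not called with ATO any more. Nr1h3 kept an adjusted p of 0.0314 and missed the 1.5-fold change only. The median of the LXR arm with ATO came down from 0.48 to 0.20. Whether the trends belong to the libraries or to the cells was not tested.

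**Figure D5:**
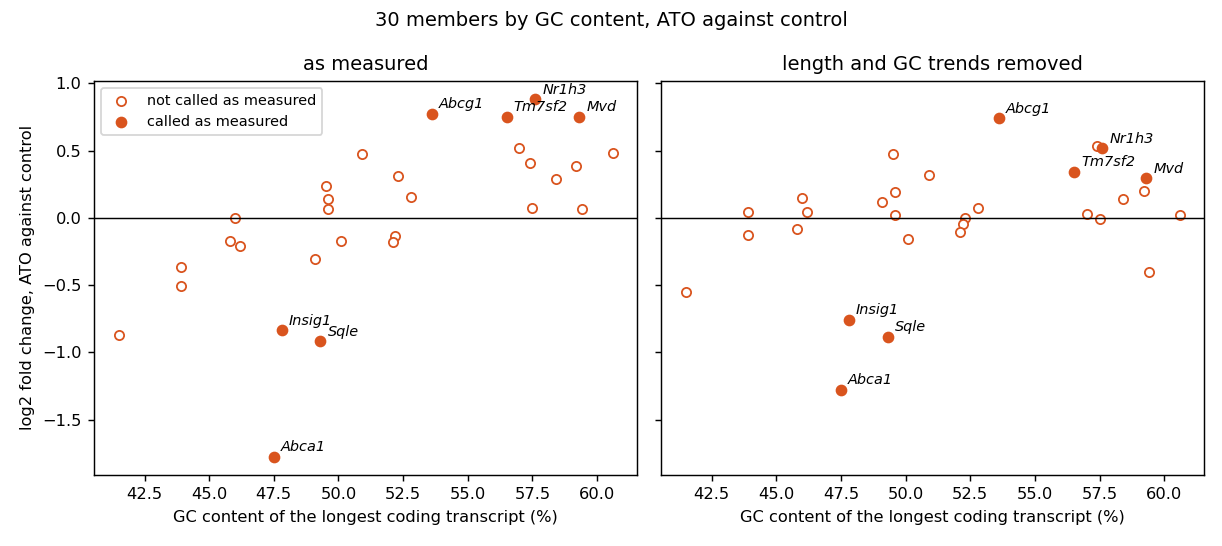
Log2 fold change with ATO of 30 members (Scd1 and Hmgcs1 left out) against the GC content of their longest coding transcript, as measured (left) and after length and GC trends were removed (right). Filled points were called as measured. Mvd moves from 0.75 to 0.29, while Insig1 moves from -0.83 to -0.76 and Abcg1 from 0.78 to 0.74.

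Outside the members, of 19 other fatty acid genes tested, Fads2, Fads3 and Acsl1 fell with both drugs and none rose. Over all genes 1.34% were called higher and 4.26% lower with ATRA, and 6.13% higher and 8.55% lower with ATO. Fads2, the delta-6 desaturase gene, fell by 1.41 with ATRA and 1.96 with ATO on the log2 scale. Fads3 was low, with 26.4 to 49.4 scaled reads in control libraries and 3.83 to 13.5 in the drug libraries. Acsl1, which activates long-chain fatty acids, fell by 0.64 with each drug. The Acsl1 call was lost in 15 of 26 other settings with ATRA and in 7 with ATO. Among 13 genes of SREBP processing, Syvn1, a ubiquitin ligase of the endoplasmic reticulum, rose with both drugs (log2 1.00 and 0.80). Mbtps2, the site-2 protease that releases SREBP, fell with ATO (by 1.14 on the log2 scale, adjusted p = 0.0266). With ATO, 1 of 13 called in each direction is near the shares over all genes.

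Several lipid handling genes fell with both drugs. Of 13 tested LXR targets and partners outside the members 5 fell with each drug, namely Apoe, Pltp, Lpl, Cd36 and Mertk, and none rose. The shares called lower over all genes were 4.26% with ATRA and 8.55% with ATO. Apoe, a lipid acceptor made by macrophages, had 3735 to 6565 scaled reads in control libraries, 725 to 1161 under ATRA and 967 to 2328 under ATO. Lpl, lipoprotein lipase, had 509 to 799 in the controls and 45.7 to 143 in the drug libraries. These 5 genes are also expressed by macrophages. Of the 26 tested monocyte and macrophage markers, Mertk among them, 12 fell with ATRA and 18 with ATO, and 2 rose with ATO. Of 15 tested genes of sterol uptake, storage and transport 4 fell with ATRA and 3 with ATO, and 2 rose with ATO (6.13% over all genes). Lipa, the lysosomal cholesterol ester hydrolase, fell by 0.84 and 0.77 on the log2 scale, Lrp1, a lipoprotein receptor, by 1.38 and 1.51, and Nceh1 by 0.76 with ATRA. The ATRA calls of Nceh1 and Lrp1 were lost in 11 and 8 of 26 other settings. The genes that rose with ATO were Stard5, by 0.65 on the log2 scale, and Nucb1, by 0.72. Nucb1 was counted with this list, but its role in sterol transport was not examined. Its ATO call was lost in 11 of 26 other settings. Of 13 genes that use isoprenoids, 1 was called, which is near the 6.13% called higher with ATO over all genes. Rabggtb, a subunit of the enzyme that prenylates RAB proteins, rose with ATO (log2 0.70, adjusted p = 0.0203).

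The direct contrast of ATO with ATRA called no member. Over all 12101 genes limma called 0% in either direction, with 764 genes at an unadjusted p under 0.05, while edgeR called 0 and DESeq2 63 genes, none of them a member. Abcg1 was the 1 member with an unadjusted p under 0.05 (log2 difference 0.50, 95% confidence interval 0.05 to 0.95, adjusted p = 0.725). All ATO libraries lay above all ATRA libraries for Pmvk, Dhcr7, Nr1h3 and Abcg1, and below for 0 members, beside 7.87% and 7.25% of all genes. For Insig1 the difference was -0.03 with an interval from -0.43 to 0.37, for Mvd 0.05 (-0.39 to 0.50) and for Abca1 -0.32 (-1.27 to 0.63). Differences between the drugs within these intervals were not detectable with 3 libraries a group.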

How the data were processed

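Total RNA of sorted GFP+ APL cells was sequenced in 9 libraries, and samples were grouped by their labels. Reads had been trimmed with cutadapt, aligned to mm9 with STAR and counted per gene with HTSeq by the authors after quality control with FastQC. Per the submitters' processing notes hg19 was also named as a build. Neither an annotation nor any version of these tools was stated in the sources read here. The deposited signal values are read counts that the authors had divided by a DESeq2 size factor per library, in 2 tables normalized separately, with identical controls underneath. Every value was a whole multiple of a library's step (100% within 0.001 reads), so the counts were recovered from the deposited tables and scaled together over 9 libraries by median-of-ratios size factors. The authors' columns of fold changes and p-values were not used. A total of 27 entries with a date in place of a symbol (at most 0.173% of the reads) were left out. Totals per library ran from 12192491 to 25511738 reads, and intervals from reads cover counting error only.

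The 9 libraries were fitted together in limma 3.58.1 (R 4.3.3) with an intensity trend on log2(scaled reads + 0.5), over the 12101 genes with at least 10 scaled reads in at least 3 libraries, with Benjamini-Hochberg adjustment over all of them. All fold changes are on that scale, which understates the change of low genes, and all adjusted p-values are from limma unless another tool is named. Alternatives were edgeR 4.0.16 and DESeq2 1.42.0 on the recovered counts, other scalings, pseudocounts, filters and thresholds, a replicate block, removal of length and GC trends, and leaving libraries out. The fit was tested on simulated data. Lengths and mm9 positions came from GENCODE vM1 (31 of 32 members), and promoter windows from RefSeq GRCm38.p6. Values by library are given for called members and main regulators, others by range. Of other lists, called genes are named, up to 4 by smallest adjusted p, and Stard5 besides. The members, lists and tests were chosen with earlier results of these data known.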

Additional observations from a re-analysis of the deposited data

How the results depend on the processing

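The 10 summary values (members called in each direction in each of the 3 comparisons, and the medians of the synthesis enzymes and the LXR arm with each drug) were computed under 26 other settings. Members called with ATRA (0 higher, 2 lower) were 2 higher with DESeq2 and 2 higher and 4 lower at an unadjusted p. Only 1 was lower with a fold change over 2, a pseudocount of 0.1, a mean of 50 or more, TMM scaling or upper-quartile scaling. With ATO (4 higher, 4 lower) 0 were higher and 2 lower at a fold change over 2, and 2 higher and 2 lower with only the 2 groups as deposited. With length and GC trends removed 1 was higher, the LXR median was 0.20 and Srebf2 had a log2 value of -0.0056 in place of 0.07, and these 3 values were the same with a replicate block added. Without control 2 and ATRA 3 together 1 was lower with ATRA and 2 higher and 2 lower with ATO, the synthesis median was 0.14 with ATRA and Srebf2 had 0.13 with ATRA. The cause of these shifts was not tested, except that fewer genes or libraries enter some settings.

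With 1 library left out, the members called with ATRA ran from 0 to 2 higher and from 0 to 3 lower, and with ATO from 0 to 7 higher and from 0 to 5 lower. The most higher calls came without control 1 (2 with ATRA, 7 with ATO), and no member was called higher with ATO without control 3, ATO 2 or ATO 3. The synthesis median ran from -0.080 to 0.074 with ATRA and from -0.066 to 0.10 with ATO, and the LXR median from 0.048 to 0.40 and from 0.36 to 0.65. Srebf2 ran from -0.23 to 0.038 with ATRA and from -0.061 to 0.22 with ATO, and Mylip from -0.030 to 0.22 with ATRA.

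Over all genes 162 were called higher and 516 lower with ATRA (79 to 552 and 185 to 1102 over 17 settings, and 23 to 295 and 141 to 572 with 1 library left out), and 742 higher and 1035 lower with ATO (204 to 1165 and 555 to 1944, and 88 to 1473 and 163 to 1546). For ATO against ATRA 0 became up to 262 higher and 289 lower at an unadjusted p, and up to 28 and 1 with 1 library left out. The fit of 2 groups as deposited was not run for this comparison, since no table holds both drugs.

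Libraries of the same replicate number were not treated as pairs in the main fit. The correlation of deviations from the group means ran from -0.381 to 0.331 for the same number, and from -0.288 to 0.308 for different numbers. Control 1 was closest to libraries of other numbers in both drug groups. Control 2 and control 3 were closest to their own number among ATRA libraries, but not among ATO libraries. ATRA 2 and ATRA 3 were closest to their own number among ATO libraries, and ATRA 1 was not. These correlations cannot show whether the libraries were paired. The replicate block left 3 members higher and 4 lower with ATO, with Tm7sf2 lost at an adjusted p of 0.0582, and 0 higher and 2 lower with ATRA.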
